A study of Mustela putorius furo with 20 samples.

Results

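The genes described here encode the machinery that copies DNA. A list of 49 such genes was taken by symbol from the count table, from the origin recognition complex to the chromatin assembly factors. Of these, 45 had a row under their symbol among the 32057 gene identifiers, and 44 had enough reads to be tested. CDT1, GINS2, POLD2 and RPA3 had no row under their symbol and were not analysed here. FEN1, the flap endonuclease, had 59 reads over all 20 libraries and was not tested.

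The RNA came from the outer subventricular zone (oSVZ) of the ferret cortex, a germinal layer below the developing cortical plate that holds basal radial glia. The oSVZ was laser-captured beneath the coronal gyrus (CG) and beneath the suprasylvian sulcus (SSS) of 10 kits, 5 at postnatal day 15 (P15) and 5 at postnatal day 5 (P5). Each kit gave 1 library per region, so the 4 groups of 5 libraries were P15 CG, P15 SSS, P5 CG and P5 SSS. No treatment or mutation was applied, and each library pooled many consecutive Nissl-stained sections of the left hemisphere of 1 kit. The captured area was chosen by its position and staining, so each library holds every cell type of that layer.

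Copying of a genome begins when the origin recognition complex, with CDC6, loads the MCM helicase onto DNA. The kinase CDC7, with CDC45 and the GINS complex, then turns the helicase on, and primase and the replicative polymerases make the new strands while the RFC complex loads the sliding clamp PCNA. Cells that divide transcribe many of these genes as they enter S phase, and in the oSVZ the dividing cells are basal radial glia, intermediate progenitors and glial precursors. These roles are known from yeast, mouse and human cells.

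Libraries held 2488477 to 4277326 assigned reads, with a median of 3076399. Levels are CPM (counts scaled to a common library total) scaled by the TMM method, which allows for differences in RNA composition, and are not divided by gene length, so they can be compared between libraries but not between genes. The library of P15 SSS animal 4 stood apart. It had no read for 1371 of the 12669 genes tested. The remaining 4 P15 SSS libraries lacked 49 to 366, and the P15 CG libraries 65 to 300. The P5 libraries lacked 218 to 586 in the CG and 244 to 825 in the SSS. Among the 45 replication genes the P15 SSS library of animal 4 was the highest of its group for 14 and the lowest for 19, and 5 had no read there. Its effect is given beside several of the genes whose call, sign or value it moved.

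The first question was how the replication genes differed between P15, the middle of cortical folding, and P5, its onset. In the CG oSVZ, 5 of the 44 tested genes fell at P15 relative to P5 (RFC4, RRM2, RFC3, PCNA and ORC4) and RFC1 rose, at a false discovery rate (FDR) below 0.05 in edgeR's quasi-likelihood test over all genes. These were 11.4% of the replication genes for the falls, where 5.72% of all genes tested fell, and 2.27% for the rise, where 7.39% of all genes rose. In the SSS oSVZ, 5 genes fell (RFC4, ORC4, RFC3, ORC2 and RRM2), which was again 11.4%, where 6.46% of all genes fell. None rose there by edgeR, against 8.19% of all genes. In the SSS 1 gene, RFC1, had a positive change with an unadjusted p below 0.05, as had 1810 of all 12669 genes. RFC1 was called higher there by DESeq2. Without P15 animal 2 the number that fell in the CG was 3. The calls are those of edgeR's quasi-likelihood test unless another tool is named.

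Most of the other genes had fold changes below 0 without passing the test. In the CG 38 of 44 (86.4%) were lower at P15, where 50.6% of all genes tested were, and the median log2 fold change was -0.52 against -0.01 over all genes. In the SSS 33 of 44 (75.0%) were lower, where 50.7% of all genes were, with a median of -0.39 against -0.01. The CG and SSS libraries came from the same kits, so these counts are not independent of each other.

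**Figure D1:**
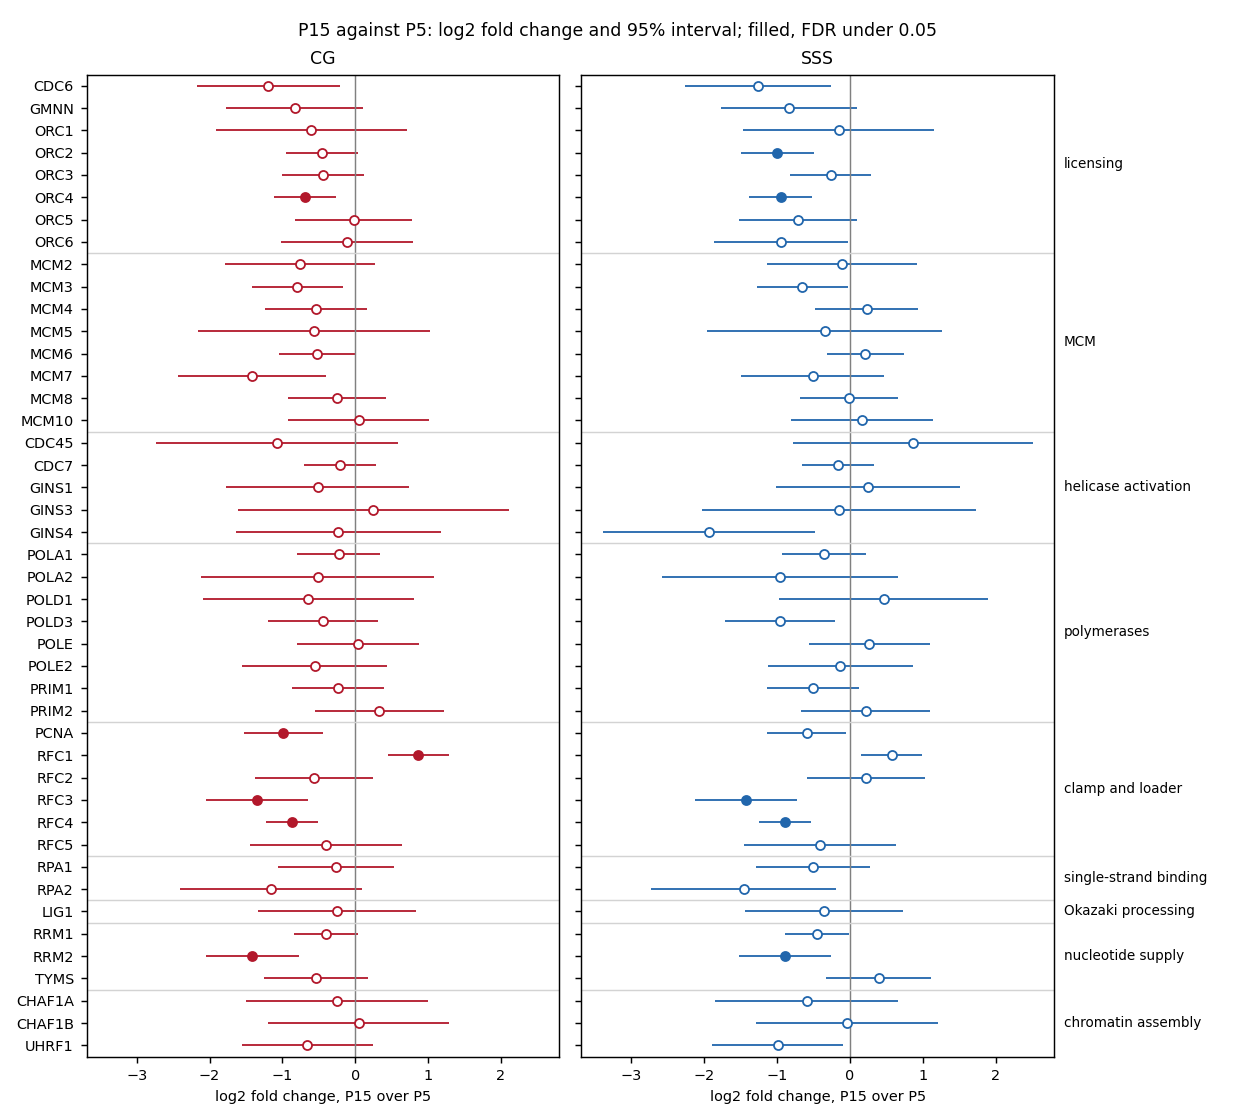
Log2 fold change at P15 over P5 (horizontal axis) with its 95% interval for the 44 tested replication genes (rows, grouped by role), in the CG (left) and the SSS (right). Filled points passed an FDR of 0.05. Points lie mostly left of 0, and RFC1 is the filled point to the right of 0 in the CG.

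When the reads of the CG and SSS libraries of each kit were summed, giving 5 kits a group, 9 of 44 genes fell at P15 (RFC4, RFC3, RRM2, ORC4, PCNA, CDC6, ORC2, MCM3 and MCM7). That was 20.5%, where 8.75% of all genes tested fell. With 1 kit left out, 6 to 9 genes fell. RFC1 again rose, 2.27% of the genes against 11.6% of all genes. The median log2 fold change was -0.35. The sums hold the same reads as the regional comparisons and are not a further experiment.

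The summed level of the 45 replication genes was 1290 to 1622 CPM in P15 CG libraries, against 1786 to 2322 CPM in P5 CG libraries. It was 1265 to 1603 CPM in P15 SSS libraries, against 1804 to 2303 CPM in P5 SSS libraries. The ages did not overlap in either region. On the TMM scale this also held without RFC4, whose reads weigh most in the sum. The ranges were then 1092 to 1471 CPM in P15 CG libraries and 1538 to 2071 CPM in P5 CG libraries. As CPM of assigned reads, without TMM scaling, the sums without RFC4 overlapped. They were 1221 to 1465 at P15 and 1454 to 2016 at P5 in the CG, and 1230 to 1451 and 1406 to 1988 in the SSS. The TMM-scaled sum of the 35 genes called in no comparison overlapped in the SSS (745 to 1106 against 942 to 1294 CPM). On that scale it did not overlap in the CG, where the ranges nearly met (726 to 923 against 931 to 1317 CPM). As CPM of assigned reads, the CG ranges of these 35 genes overlapped, at 786 to 920 for P15 and 880 to 1282 for P5. In bulk tissue, fewer dividing cells and less of each transcript per cell cannot be told apart.

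**Figure D2:**
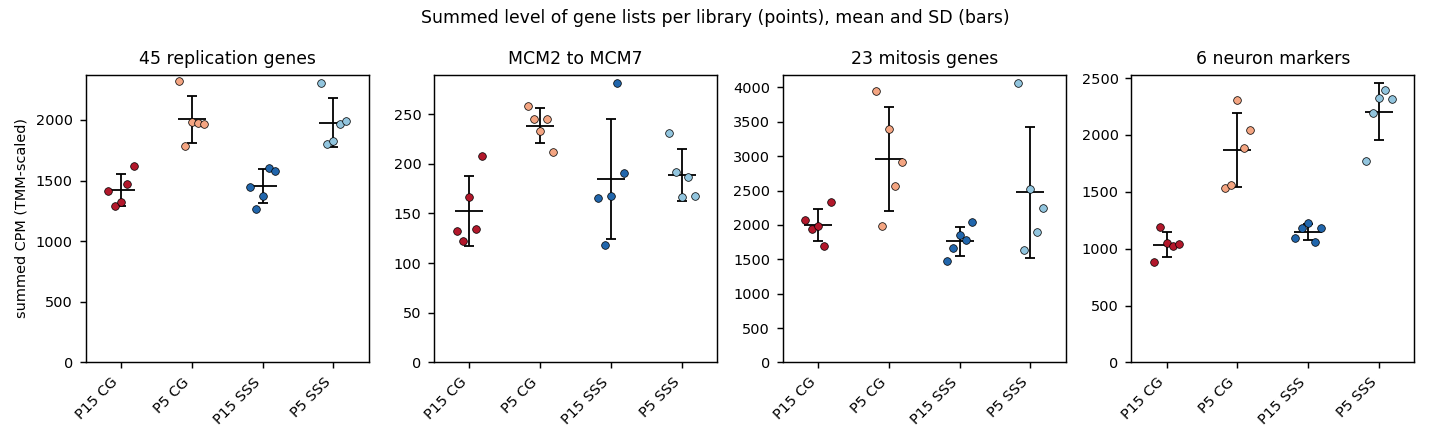
Summed CPM per library (points) with the mean and SD of 5 libraries (bars) for the 45 replication genes, MCM2 to MCM7, 23 mitosis genes and 6 neuron markers, by group. The ages separate for the replication genes and the neuron markers in both regions, and overlap for the mitosis genes.

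The clamp loader held the clearest changes. The loader is a ring of the large subunit RFC1 and the smaller subunits RFC2 to RFC5, and it opens PCNA and closes it around DNA. RFC4 was at 167, 198, 154, 157 and 151 CPM in the CG of P15 animals 1 to 5, against 250, 248, 309, 351 and 355 CPM in the CG of P5 animals 1 to 5. In the sulcal libraries it was at 185, 133, 188, 130 and 174 CPM at P15, against 311, 293, 227, 379 and 294 CPM at P5. Every P15 library lay below every P5 library of its region. The log2 fold change was -0.87 ± 0.18 (SE, FDR 0.000854) in the CG and -0.89 ± 0.18 (FDR 0.000627) in the SSS, and the call held under all 18 alternatives in each region.

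RFC3, another small loader subunit, fell more steeply. It had 40.7, 19.4, 13.3, 11.9 and 25.2 CPM in P15 CG libraries, against 75.5, 50.9, 39.6, 58.0 and 57.8 CPM in P5 CG libraries. The SSS libraries had 16.8, 15.3, 12.6, 12.7 and 37.8 CPM at P15, against 47.5, 49.7, 46.6, 42.1 and 70.4 CPM at P5. The ages were separate in the SSS, whereas in the CG the library of P15 animal 1 reached into the P5 range. The log2 fold change was -1.35 ± 0.34 (SE, FDR 0.00722) in the CG and -1.43 ± 0.35 (FDR 0.00439) in the SSS.

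RFC1, the large subunit that anchors the loader to DNA, was the gene that rose. Its level was 116, 135, 118, 151 and 152 CPM in P15 CG libraries, against 88.4, 53.3, 91.5, 71.4 and 64.5 CPM in P5 CG libraries. All P15 CG libraries were above all P5 CG libraries. In the SSS it was at 96.2, 98.7, 128, 122 and 132 CPM at P15, against 67.3, 58.6, 83.2, 70.8 and 108 CPM at P5, where P5 animal 5 overlapped the P15 range. The log2 fold change was 0.86 ± 0.20 (SE, FDR 0.0038) in the CG and 0.57 ± 0.20 (FDR 0.0561) in the SSS, with a 95% interval of 0.16 to 0.99 in the SSS. The SSS value passed the threshold in 4 of 18 alternatives.

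RFC2 and RFC5, the remaining small subunits, did not pass the test, with log2 fold changes of -0.56 ± 0.40 and -0.40 ± 0.51 (SE) in the CG and 0.22 ± 0.40 and -0.42 ± 0.51 in the SSS. The subunits of the complex therefore did not share a direction in the RNA. The ratio of RFC1 to RFC4 reads, which depends on gene length and is read only across libraries, was 0.68 to 1.01 in P15 CG libraries and 0.18 to 0.35 in P5 CG libraries. It was 0.52 to 0.94 in P15 SSS libraries and 0.19 to 0.37 in P5 SSS libraries. No library of either age overlapped the other, and the ratio does not depend on how libraries were scaled. This ratio was formed after the changes of both genes had been seen and is given as a description.

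**Figure D3:**
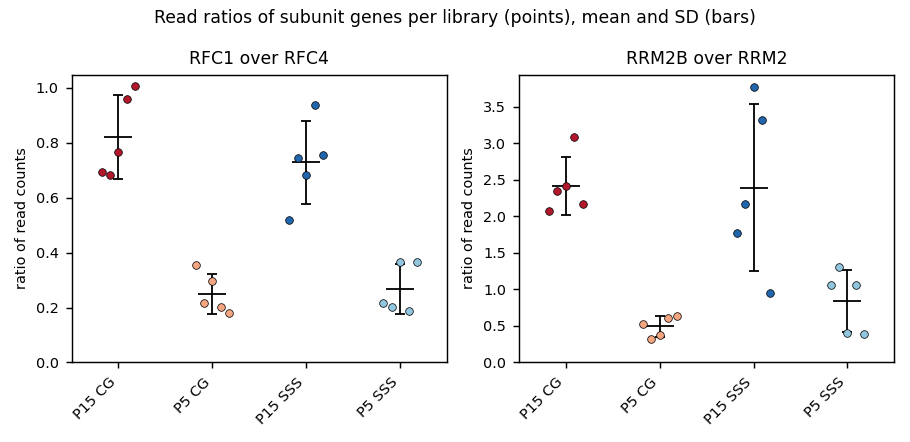
Ratio of read counts per library (points) with the mean and SD of 5 libraries (bars) for RFC1 over RFC4 (left) and RRM2B over RRM2 (right), by group. For RFC1 over RFC4 the P15 libraries of both regions lie at 0.52 or above and the P5 libraries at 0.37 or below.

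PCNA, the sliding clamp that tethers the polymerases, fell in the CG. It was at 72.1, 30.5, 51.6, 58.6 and 72.4 CPM in P15 CG libraries, against 137, 110, 132, 91.5 and 96.2 CPM in P5 CG libraries, with no overlap. The log2 fold change was -0.99 ± 0.27 (SE, FDR 0.0113), and the call was lost without P15 animal 2 (FDR 0.0528). The SSS values were 68.2, 53.8, 59.5, 34.5 and 60.5 CPM at P15, against 143, 48.3, 88.5, 71.6 and 67.1 CPM at P5, which overlapped. The change there was -0.59 ± 0.27 (FDR 0.138).

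Among the genes that license origins, ORC4 and ORC2 changed. Both encode core subunits of the origin recognition complex. ORC4 was at 116, 89.0, 77.1, 134 and 160 CPM in P15 CG libraries, against 202, 180, 154, 236 and 158 CPM in P5 CG libraries. The SSS levels were 142, 117, 81.6, 86.6 and 127 CPM at P15, against 212, 196, 186, 287 and 191 CPM at P5. The SSS ages were separate, and in the CG the library of P15 animal 5 exceeded 2 P5 libraries. The log2 fold change was -0.95 ± 0.21 (SE, FDR 0.00195) in the SSS and -0.69 ± 0.21 (FDR 0.0247) in the CG. The CG call was lost without P5 animal 1, 2 or 4 and without P15 animal 2 or 3, with an FDR of up to 0.0930.

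ORC2 had 32.9, 44.9, 29.8, 29.0 and 42.9 CPM in P15 SSS libraries, against 68.7, 74.8, 63.8, 52.7 and 98.6 CPM in P5 SSS libraries. In the CG it had 45.3, 33.8, 39, 36.0 and 43.9 CPM at P15, against 51.0, 56.3, 42.9, 46.3 and 75.3 CPM at P5. The SSS libraries did not overlap between ages and the CG libraries did. ORC2 fell in the SSS, with a log2 fold change of -0.997 ± 0.24 (SE, FDR 0.00485), and changed by -0.46 ± 0.24 (FDR 0.240) in the CG. Whether the age change differed between regions was tested as an interaction, which gave 0.55 ± 0.32 (FDR 0.998) for ORC2. Its call with summed kits was lost without P5 animal 5 (FDR 0.0644).

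CDC6, which helps ORC to load the helicase, was called by edgeR when the libraries of a kit were summed and in neither region alone. It had 6.62, 16.4, 14, 16.1 and 14.6 CPM in P15 CG libraries, against 60.1, 18.4, 27.2, 35.6 and 14 CPM in P5 CG libraries. The SSS libraries had 15.6, 6.65, 8.47, 2.72 and 11.2 CPM at P15, against 42.1, 19.7, 26.5, 6.18 and 13.9 CPM at P5, and the ages overlapped in both regions. It passed the threshold in 1 of 18 alternatives in the CG (FDR 0.0417, fitting only the CG groups) and in 2 of 18 in the SSS (FDR 0.0431 without P5 animal 4 and 0.0454 without P15 animal 1). Its summed level was 11.6, 11.7, 11.6, 9.93 and 13.0 CPM in the 5 P15 kits, against 51.3, 18.7, 26.7, 22.2 and 13.7 CPM in the 5 P5 kits. The kits did not overlap, though P5 animal 5 was close to the P15 range, and the log2 fold change was -1.20 ± 0.33 (SE, FDR 0.0142). The call was lost without P5 animal 1, the highest kit (FDR 0.0705). ORC1, ORC3, ORC5, ORC6 and GMNN, the last encoding geminin, an inhibitor of licensing, did not pass edgeR's test in any age comparison, though GMNN was called lower with summed kits in 3 of 16 alternatives (DESeq2, FDR 0.0325, and without P5 animal 2 or P15 animal 3). All 8 tested licensing genes were below 0 in both regions, with ranges of -1.19 to -0.02 in the CG and -1.27 to -0.16 in the SSS.

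The MCM2 to MCM7 genes encode the ring of the replicative helicase. All 6 were lower at P15 in the CG, with log2 fold changes of -1.42 to -0.52, and none passed edgeR's test there. In the SSS 4 were lower and MCM4 and MCM6 were higher, with changes of -0.66 to 0.23, and again none passed. Without the P15 SSS library of animal 4 the signs of MCM2, MCM4 and MCM6 in the SSS turned, to 0.02, -0.04 and -0.07. The 6 genes together summed to 122 to 208 CPM in P15 CG libraries, against 212 to 258 CPM in P5 CG libraries, which did not overlap. As CPM of assigned reads, without TMM scaling, the CG ranges overlapped slightly, at 131 to 206.8 for P15 and 206.6 to 251 for P5. In the SSS the sum was 118 to 282 CPM at P15 and 166 to 231 CPM at P5, which overlapped. The highest value was that of P15 animal 4, and the other 4 P15 SSS libraries had 118 to 191 CPM.

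MCM3 was at 15.9, 25.6, 19.4, 19.5 and 31.4 CPM in P15 CG libraries, against 38.1, 41.0, 34.8, 44.6 and 35.6 CPM in P5 CG libraries. Its SSS levels, 26.3, 16.6, 26.8, 13.6 and 28.0 CPM at P15 against 50, 29.7, 22.9, 43.2 and 30.5 CPM at P5, overlapped. MCM7 was at 13.6, 2.30, 8.41, 1.53 and 11.3 CPM in P15 CG libraries, against 24.1, 25.6, 15.2, 18.9 and 15.9 CPM in P5 CG libraries. For both genes the CG libraries of the ages did not overlap, and edgeR's test gave FDR values of 0.0867 for MCM3 and 0.0564 for MCM7. MCM7 in the CG passed the threshold in 5 of 18 alternatives, with DESeq2 (FDR 0.0278), limma-voom (0.0287), the newer edgeR fit (0.0336) and without P15 animal 1 (0.0303) or the P15 SSS library of animal 4 (0.0320). MCM3 passed with DESeq2 (FDR 0.0481). In the SSS, MCM7 had 9.82, 13.3, 13.1, 36.7 and 10.1 CPM at P15, against 17.3, 29.3, 15.8, 23.6 and 31.7 CPM at P5, and only the P15 library of animal 4 lay above the lowest P5 library. Its SSS change was -0.51, or -1.01 without that library (FDR 0.166). With summed kits MCM3 fell by 0.70 ± 0.24 on the log2 scale (SE, FDR 0.0433) and MCM7 fell by 0.87 ± 0.30 (FDR 0.047), and each call was lost in 10 of 16 alternatives.

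MCM6 had 62.2, 59.1, 87.9, 82.4 and 103 CPM in P15 CG libraries, against 146, 116, 109, 105 and 90.5 CPM in P5 CG libraries. Its SSS levels were 63.2, 45.9, 85.5, 163 and 111 CPM at P15, against 93.9, 100, 67.4, 78.5 and 63.8 CPM at P5. The ages overlapped in both regions. The log2 fold change was -0.52 ± 0.26 (SE, FDR 0.200) in the CG and 0.21 ± 0.26 (FDR 0.652) in the SSS, where it was -0.07 without the P15 SSS library of animal 4. MCM8 and MCM10, which have roles in recombination and in helicase activation, had changes of -0.25 and 0.05 in the CG and -0.01 and 0.17 in the SSS. Their SSS changes were -0.45 and -0.26 without the P15 SSS library of animal 4.

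Nucleotide supply was represented by RRM1 and RRM2, the subunits of ribonucleotide reductase, and by TYMS, thymidylate synthase. RRM2, the small subunit whose transcript is tied to S phase, was at 30.4, 14.1, 19.4, 18.8 and 36.9 CPM in P15 CG libraries, against 77.9, 72.0, 75.5, 46.3 and 47.0 CPM in P5 CG libraries. In the SSS it was at 33.2, 21.9, 24.8, 29.0 and 42.2 CPM at P15, against 50.4, 32.1, 96.3, 45 and 55.6 CPM at P5. The CG ages were separate and the SSS ages overlapped. RRM2 fell by 1.41 ± 0.31 on the log2 scale (SE, FDR 0.00204) in the CG, under every alternative. In the SSS it fell by 0.89 ± 0.31 (FDR 0.0495), a call that was lost in 14 of 18 alternatives. The FDR values of the 18 ran from 0.0280 to 0.253. Without the P15 SSS library of animal 4 the FDR was 0.0730.

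RRM1, the large subunit, had 127, 102, 81.3, 93.5 and 125 CPM in P15 CG libraries, against 164, 105, 139, 160 and 131 CPM in P5 CG libraries. Its log2 fold change was -0.40 ± 0.21 (SE, FDR 0.238) in the CG and -0.45 ± 0.21 (FDR 0.163) in the SSS. TYMS changed by -0.54 ± 0.35 (FDR 0.352) in the CG and by 0.39 ± 0.35 (FDR 0.518) in the SSS. The SSS value rests on P15 animal 4, the highest of 23.7, 27.9, 37.4, 83.9 and 43.6 CPM, and was 0.02 without that library. Neither gene passed edgeR's test, and RRM1 was called lower with summed kits when P5 animal 2 was left out (FDR 0.0345).

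**Figure D4:**
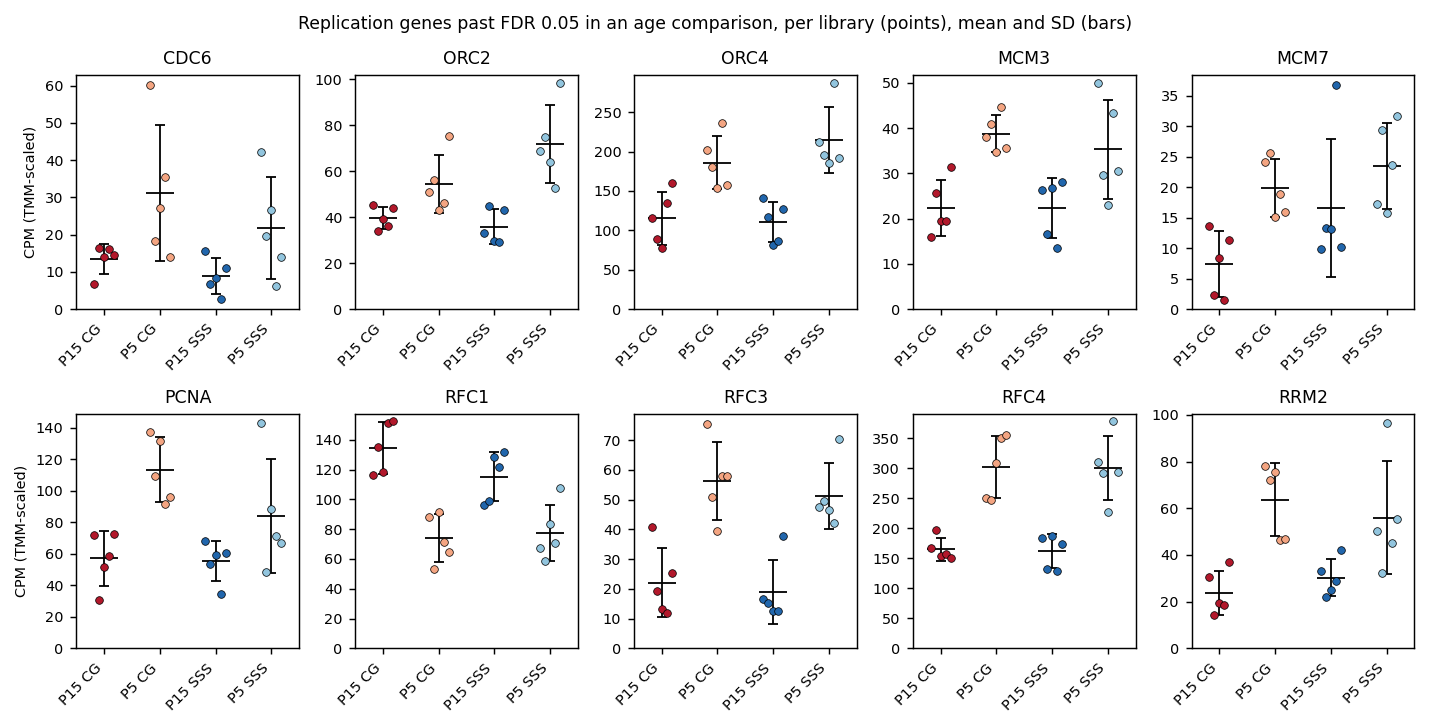
CPM per library (points) with the mean and SD of 5 libraries (bars) for the 10 replication genes that passed an FDR of 0.05 in at least 1 age comparison, by group. RFC1 is higher in P15 CG libraries (116 to 152 CPM) than in P5 CG libraries (53.3 to 91.5 CPM), and the other 9 genes have lower P15 means in both regions.

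No gene of the remaining roles was called in any age comparison by the main edgeR test. GINS4, POLD3, RPA2 and UHRF1 were called lower in some alternatives. For helicase activation (CDC45, CDC7, GINS1, GINS3 and GINS4) the log2 fold changes ran from -1.08 to 0.25 in the CG and from -1.93 to 0.86 in the SSS. CDC7, the kinase that fires origins, was among the steadiest, at -0.21 ± 0.24 (SE) in the CG and -0.16 ± 0.24 in the SSS. GINS4, which had few reads, had the lowest SSS value, -1.93 ± 0.72 (FDR 0.0669). It passed the threshold there with DESeq2 (FDR 0.0209) and the newer edgeR fit (FDR 0.0200), and was -1.63 without the P15 SSS library of animal 4.

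The polymerase genes (POLA1, POLA2, PRIM1, PRIM2, POLD1, POLD3, POLE and POLE2) had changes of -0.64 to 0.33 in the CG and -0.96 to 0.46 in the SSS. POLA1, the catalytic subunit of the polymerase that starts each strand, had 38, 52.2, 48.6, 67.8 and 48.2 CPM in P15 CG libraries, against 81.0, 38.6, 67.6, 63.8 and 47.6 CPM in P5 CG libraries, which overlapped. Its change was -0.23 ± 0.28 (SE, FDR 0.676) in the CG, with a 95% interval of -0.80 to 0.34. POLD3, an accessory subunit of polymerase delta, had 19.9 to 32.2 CPM at P15 and 32.3 to 77.7 CPM at P5 in the SSS. On the TMM scale these ranges did not overlap but nearly met, at 32.21 CPM (P15 animal 4) and 32.33 CPM (P5 animal 4). The SSS change of POLD3 was -0.96 ± 0.37 (FDR 0.0806). The newer edgeR fit called it there (FDR 0.0392), and with summed kits it was called by DESeq2, limma-voom, the newer edgeR fit, without the low-count filter and without P15 animal 4.

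RPA1 and RPA2, which coat single-stranded DNA, changed by -0.27 ± 0.39 and -1.15 ± 0.61 (SE) in the CG and by -0.51 ± 0.39 and -1.46 ± 0.62 in the SSS, without passing the test. With summed kits RPA2 passed in 5 of 16 alternatives. RPA1 had 32.4, 7.55, 13.1, 12.6 and 20.1 CPM in P15 CG libraries, against 15.7, 17.8, 24.1, 21.3 and 24.1 CPM in P5 CG libraries. Its SSS levels were 32.9, 11.6, 17.7, 18.6 and 33.5 CPM at P15, against 36.0, 25.9, 17.9, 45.8 and 37.5 CPM at P5, and the ages overlapped in both regions. LIG1, the ligase that joins Okazaki fragments, changed by -0.25 ± 0.53 in the CG and by -0.35 ± 0.53 in the SSS, or -0.72 without the P15 SSS library of animal 4. It had 10.3, 9.85, 18, 9.20 and 9.14 CPM in P15 CG libraries, against 16.8, 14.5, 16.3, 7.58 and 12.4 CPM in P5 CG libraries, which overlapped. The chromatin genes CHAF1A and CHAF1B, subunits of the factor that deposits histones behind the fork, and UHRF1, which recruits maintenance DNA methylation, had changes of -0.66 to 0.05 in the CG and -0.99 to -0.05 in the SSS. UHRF1 was at 33.4, 20.7, 24.1, 12.3 and 20.8 CPM in P15 CG libraries, against 27.9, 30.4, 65.1, 21.3 and 30.8 CPM in P5 CG libraries, and its ages overlapped. Its SSS change was -0.99, or -0.74 without the P15 SSS library of animal 4. With summed kits it passed in 2 of 16 alternatives, without the low-count filter (FDR 0.0450) and without P5 animal 4 (FDR 0.0402). FEN1 had at most 4.60 CPM in any library.

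Counted by separation, 5 genes had all P15 libraries below all P5 libraries in the CG (MCM3, MCM7, PCNA, RFC4 and RRM2), or 11.4%, where 5.49% of all genes did. RFC1 had all P15 CG libraries above all P5 CG libraries, or 2.27%, where 7.32% of all genes did. In the SSS 5 genes were separate downward (ORC2, ORC4, POLD3, RFC3 and RFC4), or 11.4%, where 4.43% of all genes were, and none upward, where 5.52% were. For POLD3 the margin was slight, from 32.21 CPM at P15 to 32.33 CPM at P5 on the TMM scale. RFC4 was the only gene on both downward lists. With summed kits 7 genes were separate downward, or 15.9%, where 6.41% of all genes were, and RFC1 was separate upward, or 2.27%, where 9.0% were.

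Other replication genes outside the 49 were described from a second list, of which 33 were tested. In the CG 3 fell at P15 (9.09%, where 5.72% of all genes fell) and 1 rose (3.03%, where 7.39% rose). In the SSS 4 fell (12.1%, where 6.46% of all genes fell) and 1 rose (3.03%, where 8.19% rose). The medians were -0.34 in the CG and -0.29 in the SSS. PCLAF, a PCNA-bound factor, fell by 1.11 ± 0.31 on the log2 scale (SE, FDR 0.0156) in the CG and by 1.20 ± 0.32 (FDR 0.0089) in the SSS. USP1, which removes ubiquitin from PCNA, fell by 0.52 ± 0.18 (FDR 0.0462) in the CG and by 0.79 ± 0.18 (FDR 0.0023) in the SSS. DNA2, a nuclease that trims Okazaki flaps, fell in the CG (-1.17 ± 0.35, FDR 0.0234).

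In the SSS SLBP, which binds replication-dependent histone transcripts, and ASF1A, a histone chaperone, also fell, by 0.98 ± 0.29 (SE, FDR 0.0204) and 0.60 ± 0.20 (FDR 0.0409). The genes that rose act on nucleotide pools. RRM2B, the ribonucleotide reductase subunit used outside S phase, rose in the CG (0.90 ± 0.30, FDR 0.0401) and was 0.73 ± 0.30 (FDR 0.0977) in the SSS. SAMHD1, which breaks down deoxynucleotides and was named after its value was seen, rose in the SSS (0.72 ± 0.25, FDR 0.0467). The ratio of RRM2B to RRM2 reads was 2.08 to 3.08 in P15 CG libraries and 0.33 to 0.64 in P5 CG libraries, and 0.95 to 3.77 in P15 SSS libraries and 0.39 to 1.31 in P5 SSS libraries, so that the ages overlapped only in the SSS. Both genes were called in opposite directions in the same CG libraries, so the ratio is a description and no further evidence.

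The E2F and RB genes control transcription of many replication genes. Of 15 tested, none was called in the CG by edgeR, where 5.72% of all genes fell and 7.39% rose. There 3 of 15 had an unadjusted p below 0.05, all of them lower. Over all 12669 genes 3231 had such a p, of which 1537 were lower. In the SSS 1 of 15 fell, where 6.46% of all genes fell. None rose there by edgeR, where 8.19% of all genes rose. A positive change with an unadjusted p below 0.05 was found for 1 of 15, and for 1810 of all 12669 genes. The gene that fell in the SSS was LIN9, a subunit of the MuvB core (-1.64 ± 0.31, SE, FDR 0.0003). Of 23 mitosis genes, 6 fell in the CG (26.1%, where 5.72% of all genes fell), 3 fell in the SSS (13.0%, where 6.46% fell) and none rose by edgeR, where no gene of the list had a positive change with an unadjusted p below 0.05. All 23 were below 0 in the CG, as were 21 in the SSS. CCNB2 (-1.15 ± 0.29, FDR 0.0062) and TTK (-1.08 ± 0.28, FDR 0.0091) had the lowest p values in the CG, and TTK (-1.14 ± 0.28, FDR 0.0053) and AURKB (-2.15 ± 0.61, FDR 0.0153) in the SSS. The first 2 encode a mitotic cyclin and a spindle checkpoint kinase, and AURKB encodes the kinase of the chromosomal passenger complex.

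Markers of the cell types of this layer moved with age as well. Over all genes tested, 5.72% fell and 7.39% rose in the CG, and 6.46% fell and 8.19% rose in the SSS. Of 6 neuron markers 5 fell in each region, their sum being 879 to 1188 CPM in P15 CG libraries and 1534 to 2305 CPM in P5 CG libraries. Of 4 tested intermediate progenitor markers 3 fell in each region. The remaining marker, PPP1R17, was higher at P15 without passing the test (log2 fold change 1.17 in the CG, 1.78 in the SSS). It had 79 reads at P15 and 35 at P5 in the CG, and 143 and 38 in the SSS. The list summed to 16.9 to 28.1 CPM in P15 CG libraries and 66.6 to 127 CPM in P5 CG libraries. Most of its CG reads were those of EOMES (253 at P15 and 1355 at P5), and NEUROG1 was at 0 in all 20 libraries. Radial glia markers were present in every library, 3 of 8 rising and 1 falling in each region, at 7741 to 10605 CPM in P15 CG libraries and 9401 to 11648 CPM in P5 CG libraries. Their mean sum was lower at P15 in the CG (9416 against 10487 CPM) and higher at P15 in the SSS (8596 against 7938 CPM), with overlap in both regions. FABP7 and PTPRZ1, the markers with the most reads, moved in opposite directions. FABP7 had 39746 reads at P15 and 99268 at P5 in the CG, and 30575 and 64336 in the SSS. PTPRZ1 had 66141 and 37916 in the CG, and 65677 and 36042 in the SSS.

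Most glial and vessel markers were higher at P15. Of 4 oligodendrocyte precursor markers 3 rose, of 6 astrocyte markers 5, of 4 tested microglia markers 3 and of 5 endothelial markers 2, in each region. Over all genes tested, 7.39% rose in the CG and 8.19% in the SSS. The endothelial marker CLDN5, which had few reads, was lower at P15 in the SSS without being called (-1.27). Their sums were 537 to 1011 CPM for precursors, 436 to 796 CPM for astrocytes, 139 to 297 CPM for microglia and 331 to 378 CPM for endothelium in P15 CG libraries. The P5 CG libraries had 189 to 273, 126 to 231, 27.2 to 89.2 and 117 to 288 CPM for the same lists, with TMEM119 at 0 in all 20 libraries. The endothelial sums overlapped between ages in the SSS, at 288 to 380 CPM at P15 and 103 to 301 CPM at P5. The part of these shifts in the age changes of the replication genes was not tested.

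The second question was whether the replication genes differed between the CG and the SSS of the same kit. No replication gene was called at either age. At P15 the count was 0 of 44 by edgeR with the kit as a block, where 0.0158% of all genes tested were called (0.00789% higher and 0.00789% lower in the CG). At that age 1 of 44 genes, ORC3, had an unadjusted p below 0.05, as did 471 of all 12669 genes. At P5 the count was also 0 of 44, where 0.0395% of all genes were called (0.00789% higher and 0.0316% lower in the CG). Here 3 of 44 genes (MCM6, PCNA and TYMS, all higher in the CG) had an unadjusted p below 0.05. So did 1017 of all 12669 genes, of which 549 were higher in the CG. DESeq2, limma-voom and the newer edgeR fit called none of them at either age.

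At P15 the signs were mixed, with 24 of 44 genes higher in the CG, where 6843 of all 12669 genes were. The median log2 fold change was 0.03, against 0.03 over all genes. At P5, 28 of 44 were higher in the CG, where 6524 of all 12669 genes were, and the median was 0.14, against 0.02 over all genes. For the genes with the most reads the intervals were narrow. RFC4 differed by 0.04 (95% interval -0.26 to 0.35) at P15 and by 0.01 (-0.29 to 0.31) at P5, and ORC4 by 0.04 (-0.28 to 0.35) at P15 and by -0.21 (-0.52 to 0.10) at P5. For genes with few reads the intervals were wide, as for MCM5, whose difference of 1.47 ± 0.94 (SE) at P15 had a 95% interval of -0.46 to 3.41.

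**Figure D5:**
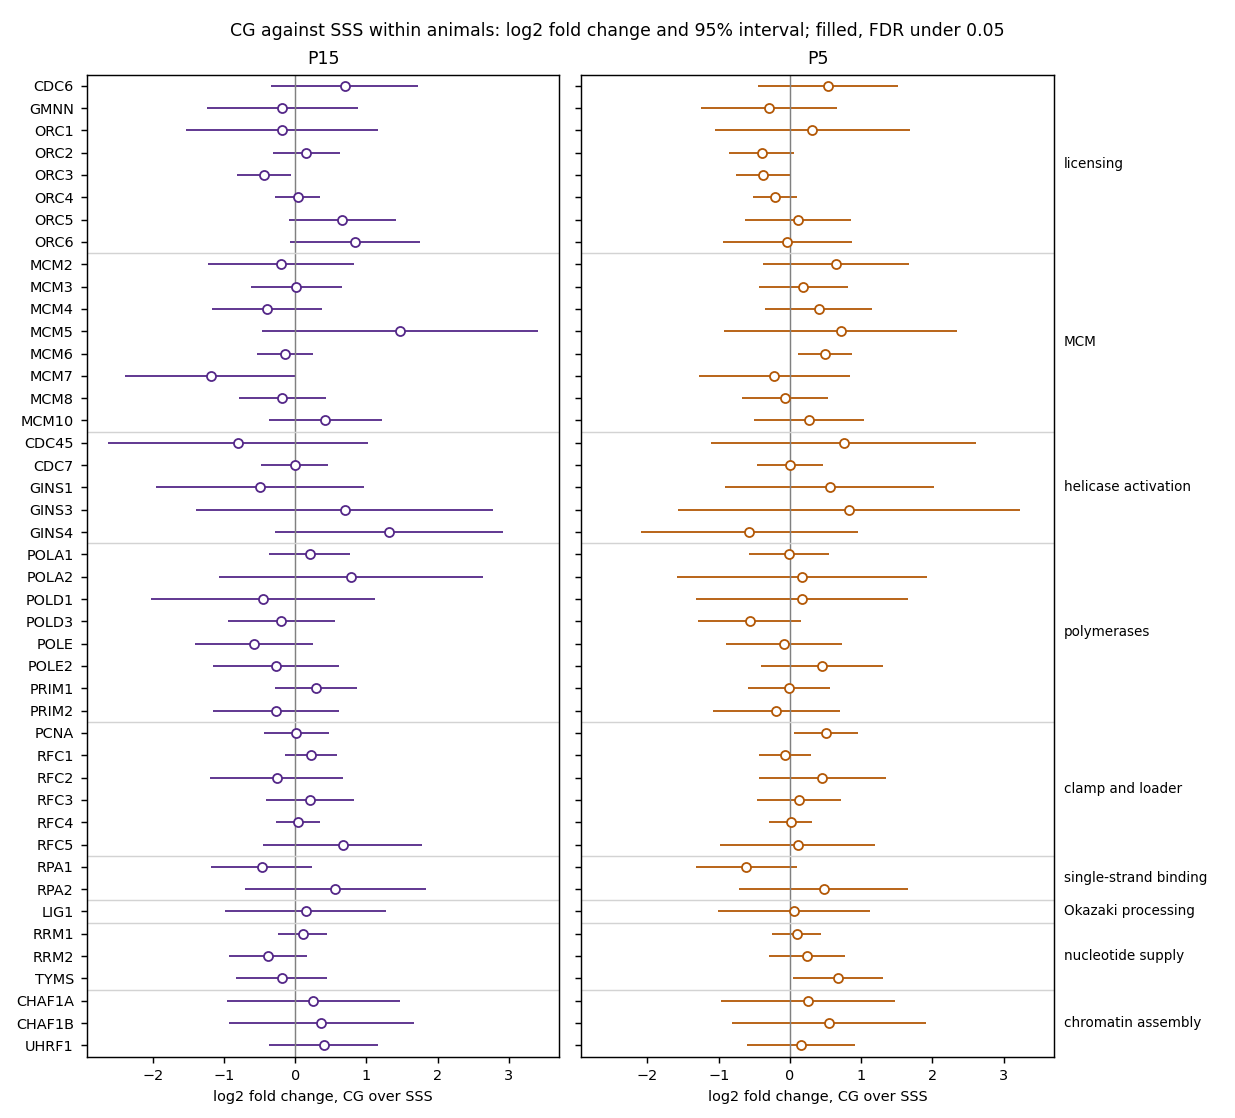
Log2 fold change of CG over SSS within kits (horizontal axis) with its 95% interval for the 44 tested replication genes (rows, grouped by role), at P15 (left) and P5 (right). No point is filled, since none passed an FDR of 0.05, and most intervals span 0.

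MCM6 had the lowest p of the P5 comparison. It was at 146, 116, 109, 105 and 90.5 CPM in the CG of P5 animals 1 to 5, against 93.9, 100, 67.4, 78.5 and 63.8 CPM in the SSS of the same animals. The CG was higher in all 5 kits, and the log2 fold change was 0.49 ± 0.19 (SE, FDR 0.499). It was the 1 gene with the CG above the SSS in every P5 kit, or 2.27%, where 4.85% of all genes had this. ORC2 and ORC4 had the CG below the SSS in every P5 kit, or 4.55%, where 4.38% of all genes did.

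PCNA and TYMS were higher in the CG of 4 of 5 P5 kits. PCNA was at 137, 110, 132, 91.5 and 96.2 CPM in P5 CG libraries, against 143, 48.3, 88.5, 71.6 and 67.1 CPM in P5 SSS libraries (0.51 ± 0.22, SE, FDR 0.542). TYMS was at 87.7, 42.2, 59.8, 33.8 and 38.4 CPM in P5 CG libraries, against 33.5, 46.9, 43.5, 19.98 and 20.3 CPM in P5 SSS libraries (0.67 ± 0.31, FDR 0.586). At P15 the same differences were 0.02 ± 0.22 for PCNA, -0.19 ± 0.31 for TYMS and -0.14 ± 0.19 for MCM6. The mitosis genes had positive differences in 21 of 23 cases at P5 (median 0.34) and 18 of 23 at P15 (median 0.17), with none called by edgeR. Of these, 7 and 2 had an unadjusted p below 0.05 and were higher in the CG, as were 549 and 235 of all 12669 genes. Markers of other cells also differed. At P5, 7 of 8 radial glia markers were higher in the CG (median 0.37) and FABP7 was called (FDR 0.0018). All 6 astrocyte markers were higher (median 0.74) with none called. Of 4 oligodendrocyte precursor markers 3 were lower and 1 was higher, and GPR17 was called lower (FDR 0.0333). Of 6 neuron markers 4 were lower and 2 were higher, with none called. At P15, all 4 tested intermediate progenitor markers were higher in the CG, and 1 of them, EOMES, was called (FDR 0.0273). Their part in the regional values of the replication genes was not tested.

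ORC3, a further core subunit of the origin recognition complex, had the lowest p at P15. It was at 50.6, 73.2, 55.8, 93.9 and 92.1 CPM in P15 CG libraries, against 62.7, 79.1, 69.1, 189 and 125 CPM in P15 SSS libraries. The CG was lower in all 5 kits, by -0.44 ± 0.19 on the log2 scale (SE, FDR 0.9997), or -0.30 when the P15 SSS library of animal 4 was left out. At P5 it was at 154, 78.0, 67.9, 84.8 and 113 CPM in the CG, against 118, 124, 90.8, 133 and 163 CPM in the SSS, lower in 4 of 5 kits (-0.38 ± 0.18, FDR 0.633).

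ORC5 and ORC6 were higher in the CG of all 5 P15 kits, 4.55% of the genes, where 3.80% of all genes were. ORC6 had 25.8, 13.1, 19.9, 31.4 and 28.5 CPM in P15 CG libraries, against 16.8, 11.3, 14.5, 3.63 and 22.6 CPM in P15 SSS libraries (0.84 ± 0.44, SE, or 0.40 without the P15 SSS library of animal 4). ORC5 had 26.5, 24.3, 14.5, 36.8 and 15.0 CPM in P15 CG libraries, against 15.3, 17.6, 10.6, 13.2 and 13.5 CPM in P15 SSS libraries (0.66 ± 0.37). ORC3, RPA1 and RRM2 were lower in the CG of all 5 P15 kits, or 6.82%, where 3.23% of all genes were. None of these 5 genes passed the test.

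MCM7 and GINS4 completed the lowest p values at P15 and rested on few reads. MCM7 had 13.6, 2.30, 8.41, 1.53 and 11.3 CPM in P15 CG libraries, against 9.82, 13.3, 13.1, 36.7 and 10.1 CPM in P15 SSS libraries, lower in 3 of 5 kits. Its difference was -1.19 ± 0.58 (SE, FDR 0.9997), and -0.54 without the P15 SSS library of animal 4. GINS4 had 7.28, 3.61, 5.14, 6.90 and 7.31 CPM in P15 CG libraries, against 2.89, 1.33, 5.19, 0 and 5.07 CPM in P15 SSS libraries (1.32 ± 0.78, or 0.77 without the P15 SSS library of animal 4). Animal 4 had no GINS4 read in the SSS, where 3 reads would be 1.21 CPM of assigned reads.

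The difference of the CG to SSS differences between P15 and P5 was tested in the same fit. No gene was called by edgeR, neither among the 44 replication genes nor among all genes tested (0.0%), and DESeq2 called 1 gene, not a replication gene. MCM6 was the 1 replication gene with an unadjusted p below 0.05, at -0.64 ± 0.27 (SE, FDR 0.998), where 488 of all 12669 genes had such a p. The changes at P15 relative to P5 were therefore not shown to differ between the CG and the SSS for any of these genes, including those called in 1 region alone.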

How the data were processed

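Counts of reads per gene were deposited by the authors as 1 table of 20 libraries: laser-captured oSVZ, SPIA-amplified cDNA without molecular identifiers, Trimmomatic 0.38, FastQC 0.11.9, STAR 2.7.9a against MusPutFur1.0, and featureCounts. No source used here gives the strand setting, so overlapping and antisense genes may share reads. The symbol column of the table was out of register with its identifiers. Each identifier was given the symbol at its sorted rank, under which 13 of 30 listed ribosomal protein genes were found, with a median of 718 CPM, against 0.182 CPM when read line by line.

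Counts were filtered (filterByExpr, minimum count 10, minimum total 15), scaled by TMM and tested with edgeR 4.0.16 in R 4.3.3 (quasi-likelihood F-test of the older kind, Benjamini-Hochberg adjustment over all 12669 genes, or 13015 with summed kits, prior count 0.125). Calls were made at an FDR below 0.05. Age contrasts used a design of the 4 groups, and regional contrasts had the kit as a block, since the labels give the 2 libraries of a kit the same animal. Deviations from the group means correlated within kits by 0.046 to 0.246 (median 0.141), against a median of -0.042 between kits. SE is the fold change over the square root of F, and intervals are at 95%. Values, errors and counting floors (3 reads) cover counting and library spread only. Alternatives were library-size scaling, DESeq2 1.42.0, limma-voom (limma 3.58.1), the newer edgeR fit, other filters, leaving out each kit and the P15 SSS library of animal 4, no block, and fits of only the groups compared. The model code was tested on simulated data.

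The members and lists were chosen with earlier results of these data known. Values per library are given, in the comparisons described, for genes called in any comparison, the 5 of lowest p in each regional comparison and the gene with the most reads of each remaining role. RRM1 and POLD3 were added after their values were seen. Of the other lists, at most the 4 called genes of lowest p are named. No sequences are shown.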

Additional observations from a re-analysis of the deposited data

Results flagged for a closer look

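Single libraries that stood far from the other 4 of their group were looked for in 80 groups of values (20 named genes in 4 groups, a gap over the whole range above 0.71), and 8 were found. Chance gives about 1 in 20 groups where values are independent and normally spread. The 20 genes share the same libraries and some had few reads, so that rate need not hold here. In the P15 SSS library of animal 4, MCM7 was at 36.7 CPM (9.82 to 13.3 CPM in the others) and UHRF1 at 4.08 CPM (19.3 to 23.6 CPM). RFC3 was at 37.8 CPM in P15 SSS animal 5 (12.6 to 16.8 CPM) and at 70.4 CPM in P5 SSS animal 5 (42.1 to 49.7 CPM). CDC6 was at 6.62 CPM in P15 CG animal 1 (14 to 16.4 CPM) and LIG1 at 18 CPM in P15 CG animal 3 (9.14 to 10.3 CPM). ORC4 was at 287 CPM in P5 SSS animal 4 (186 to 212 CPM), and UHRF1 at 65.1 CPM in P5 CG animal 3 (21.3 to 30.8 CPM).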

How the results depend on the processing

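RFC4 and RFC3 passed the threshold in every age comparison under every alternative run, as did RFC1 and RRM2 in the CG and with summed kits, and ORC4 and ORC2 in the SSS. The number of replication genes that fell in the CG ran from 3 to 6 when a kit or the P15 SSS library of animal 4 was left out, and the number that rose in the SSS was 1 (RFC1) with library-size scaling and with DESeq2, and 0 to 1 with a kit left out. No replication gene was called between the regions, or in the difference of differences, in any fit, including that without the replicate block. Over all genes, the 5 calls between CG and SSS at P5 became 3 with library-size scaling, 106 with DESeq2, 27 with the newer edgeR fit, 54 with limma-voom, 69 without the low-count filter and 0 without the replicate block, and 1 to 52 with a kit or library left out. The 2 calls at P15 became 11 with DESeq2, 4 with the newer fit, 9 with limma-voom, 18 without the filter, 0 without the replicate block, 0 with only the groups compared, and 0 to 2 with a kit left out. The difference of differences gave 1 call with DESeq2, 5 without the filter and 0 to 1 with a kit left out. The causes were not tested. No called change of a replication gene turned sign. Among all 44 tested, the sign turned under at least 1 alternative for 6 in the CG, 12 in the SSS and 11 with summed kits between ages, for 21 at P15 and 20 at P5 between regions, and for 21 in the difference of differences. Of the 20 genes chosen for values, in the CG with age, ORC6 ran from -0.27 to 0.21 with a kit left out (above 0 without P5 animal 1 or 3, or P15 animal 2), and ORC5 was 0.061 with library-size scaling and ran from -0.23 to 0.14 with a kit left out. In the SSS, MCM6 ran from -0.070 to 0.39, the lowest without P15 animal 4 or its SSS library. With summed kits, TYMS ran from -0.26 to 0.066, above 0 without P15 animal 2 or P5 animal 1. No paired analysis was possible between ages because the ages are different kits. Depth limits the genes with few reads, such as MCM5, GINS3 and GINS4.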
